A study of Arabidopsis thaliana with 14 samples.

Results

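The PYR/PYL proteins are the receptors of abscisic acid (ABA), the hormone that plants make when water is short. When ABA is bound, a receptor closes over a clade A type 2C protein phosphatase (PP2C) and blocks it, which frees the SnRK2 kinases that the phosphatase holds inactive, and these kinases then activate the ABF and ABI5 transcription factors and close stomata. In *Arabidopsis* the transcripts of several receptors are known to decline, and those of the PP2C genes to increase, when ABA is supplied.

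The family was taken as 10 loci, PYR1 and PYL1 to PYL9, which 11 probes of the array represent among 28327 loci with a probe. They fall into subfamily I (PYL7, PYL8 and PYL9, monomeric receptors), subfamily II (PYL4, PYL5 and PYL6, monomeric receptors) and subfamily III (PYR1, PYL1, PYL2 and PYL3, which includes the receptors that form dimers). PYL8 has 2 probes and the one with the higher mean intensity stood for it. Of the 10 loci, 9 passed the filter on dim probes, as did 22810 loci in all, and these 9 were well above background in all 28 channels. PYL3 was removed: its probe was well above background in 3 of 14 quad channels and in 1 of 14 WT channels, and its quad/WT ratio is not reported. The probe sequences were not analysed here, so cross-hybridisation between these related genes was not tested.

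The arrays set the Col-0 wild type (WT) against *bri1brl1brl3bak1* (quad), a mutant in the brassinosteroid receptors BRI1, BRL1 and BRL3 and the co-receptor BAK1. Plants aged 28 days by the series description, after 7 days on agar and 16 days in soil by the growth protocol, were collected at day 0 and, with regular watering or with water withheld (drought), at days 2, 4 and 6. Quad and WT RNA of the same condition shared an array, which gives 14 arrays over 7 conditions, with 2 biological replicates (n = 2) a condition whose dyes were swapped, and each replicate pooled several plants by the study's methods. The comparisons ask whether receptor transcripts differ between the genotypes, and whether drought changes them alike in both.

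All quad/WT ratios are log2 values of normalised intensities, positive where quad is higher. Drought differences set droughted against watered plants of the same day and genotype. A rise or fall under drought is therefore not a change from day 0. A gene is said to have passed the test, or to have risen or fallen, at a Benjamini-Hochberg adjusted p under 0.05 in limma over all genes, and to have passed the limits of the study's methods when its log2 difference was also over 1.5. Across genes, the ratios of replicate arrays correlated with r between 0.523 (day 6 drought) and 0.888 (day 2 water), and precision is limited by how few arrays there are. The array of day 4 drought replicate 1 stood apart: the background around 18 of its spots was over 2 times the signal, and its deposited ratios had a slope of 2.50 on the scanner's log10 ratios, against 3.08 to 3.13 on the other 13. With those spots masked, 12.1% of all genes passed in quad/WT at day 4 drought in place of 5.90%, and 2 of the 9 receptors passed in both cases. The probe of BAK1 was lower in quad on 14 of 14 arrays (-2.26 to -1.71), those of BRL1 (-2.11 to -0.45) and BRL3 (-1.60 to -0.63) likewise, and that of BRI1 on 1 of 14 (-0.03 to 0.79). Where these probes lie relative to the mutations was not analysed here.

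Among the 9 receptors measured, the quad/WT differences lay mostly in subfamily II. Over the 7 conditions 16 of the possible calls passed the test, of which PYL5 gave 6, PYL6 5, PYL4 2, and PYL2, PYL7 and PYL8 1 each. PYL5 was the member with the largest and most regular difference, higher in quad on 14 of 14 arrays. PYR1, PYL1 and PYL9 passed the test in no condition. Before treatment 0 receptors were higher in quad and 1 was lower, beside 3.52% and 6.57% of all genes. At day 2, watered plants had 2 higher (13.4% of all genes) and 1 lower (8.05%), and droughted plants 1 higher (5.74%) and 3 lower (11.9%). At day 4, 1 was higher (5.12%) and 0 lower (7.98%) with water, and 2 were higher (3.32%) and 0 lower (2.58%) with drought, where the share of all genes depends on the masking above. At day 6, 3 were higher (7.78%) and 0 lower (6.78%) with water, and 2 were higher (4.93%) and 0 lower (7.07%) with drought. For the mean over the 7 conditions 2 of the 9 receptors were higher and 1 was lower, beside 17.5% and 19.4% of all genes. The family's median ratio ran from -0.24 at day 2 drought to 0.22 at day 6 water, and that of all genes from -0.01 to 0.01.

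**Figure D1:**
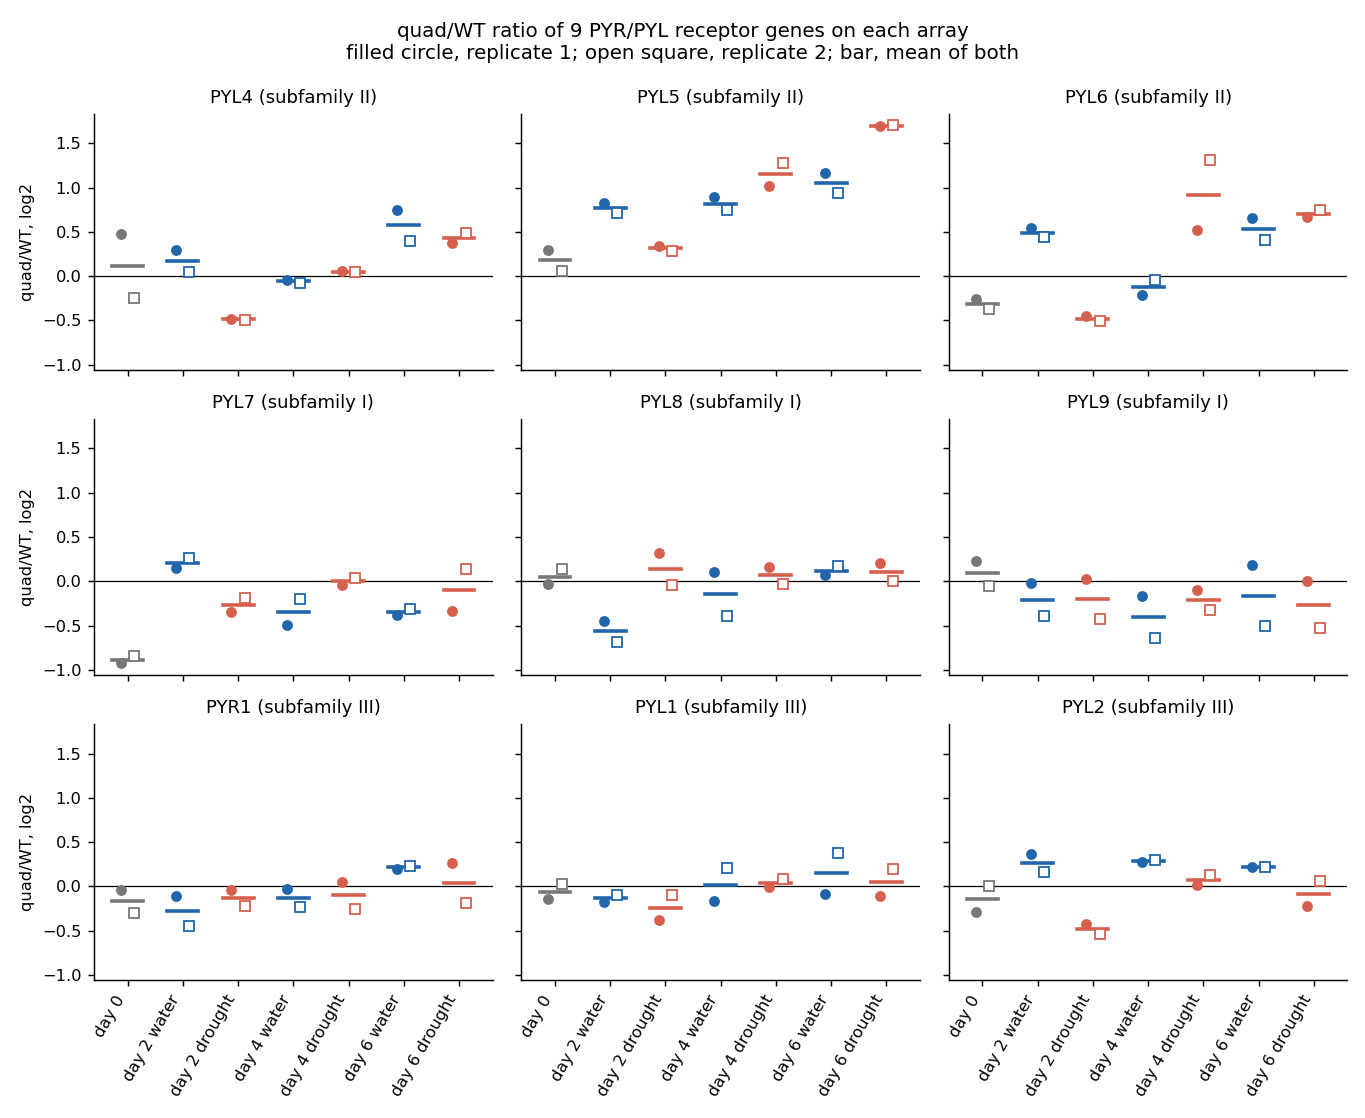
The quad/WT ratio (log2, vertical axis) of the 9 receptor genes in the 7 conditions (horizontal axis), with a point for each array and a bar at the mean of both; grey marks day 0, blue watered and red drought. PYL5 lies above 0 on every array and is highest at day 6 drought (1.69 and 1.70), and PYL7 is lowest at day 0 (-0.93 and -0.84). At day 2 drought both arrays of PYL6, PYL4, PYL2, PYL7, PYR1 and PYL1 lie below 0.

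PYL5 (AT5G05440) encodes a monomeric ABA receptor. Its ratio was 0.30 and 0.05 on the replicate arrays of day 0, 0.82 and 0.72 at day 2 water, 0.89 and 0.75 at day 4 water, and 1.16 and 0.93 at day 6 water. Under drought it was 0.34 and 0.29 at day 2, 1.02 and 1.28 at day 4, and 1.69 and 1.70 at day 6. Both arrays of every condition were therefore above 0, the day 0 pair had the mean closest to 0, and the day 6 drought pair lay above all the others. The transcript was higher in quad in 6 of the 7 conditions, by 0.32 (SE 0.0957, adjusted p = 0.0399) at day 2 drought up to 1.70 (adjusted p = 1.23e-06) at day 6 drought, which is a 3.25-fold difference and the only receptor ratio past the limits of the methods, as were 0.443% of all genes there. At day 0 the difference was 0.18 (adjusted p = 0.346). The mean over conditions was 0.85 (SE 0.0362, adjusted p = 1.45e-08, 1.81-fold). The call at day 2 drought was lost without either array of day 2 drought (adjusted p = 0.327 and 0.188) or of day 2 water (0.0574), and the other PYL5 calls held when any single array was left out.

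The channels show the level in each genotype, compared here between arrays and so dependent on the normalisation between them. In WT, the log2 level of the PYL5 probe was 10.01 and 10.21 at day 0, 9.49 and 9.44 at day 2 water, 9.96 and 10.22 at day 4 water, and 10.40 and 10.58 at day 6 water. Under drought WT went the other way, from 10.30 and 10.41 at day 2 to 9.76 and 9.61 at day 4 and 8.68 and 9.16 at day 6, the lowest level of the 7 WT conditions. In quad the level was 10.32 and 10.27 at day 0, and then 10.32 and 10.15, 10.85 and 10.97, and 11.56 and 11.51 at days 2, 4 and 6 of watering. Droughted quad plants gave 10.65 and 10.69, 10.77 and 10.89, and 10.37 and 10.86 on the same days. The lowest quad channel at day 6 drought thus lay above both WT channels of that condition and close to the watered WT plants of day 6. With the 7 conditions ordered by their own means, 4 of 6 neighbouring pairs did not overlap in WT, and 3 of 6 in quad. The order came from these same values, with 2 channels a condition, so the counts only describe the spread. They were not made over all genes. In bulk tissue, fewer cells that express a gene and less transcript per cell cannot be told apart.

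**Figure D2:**
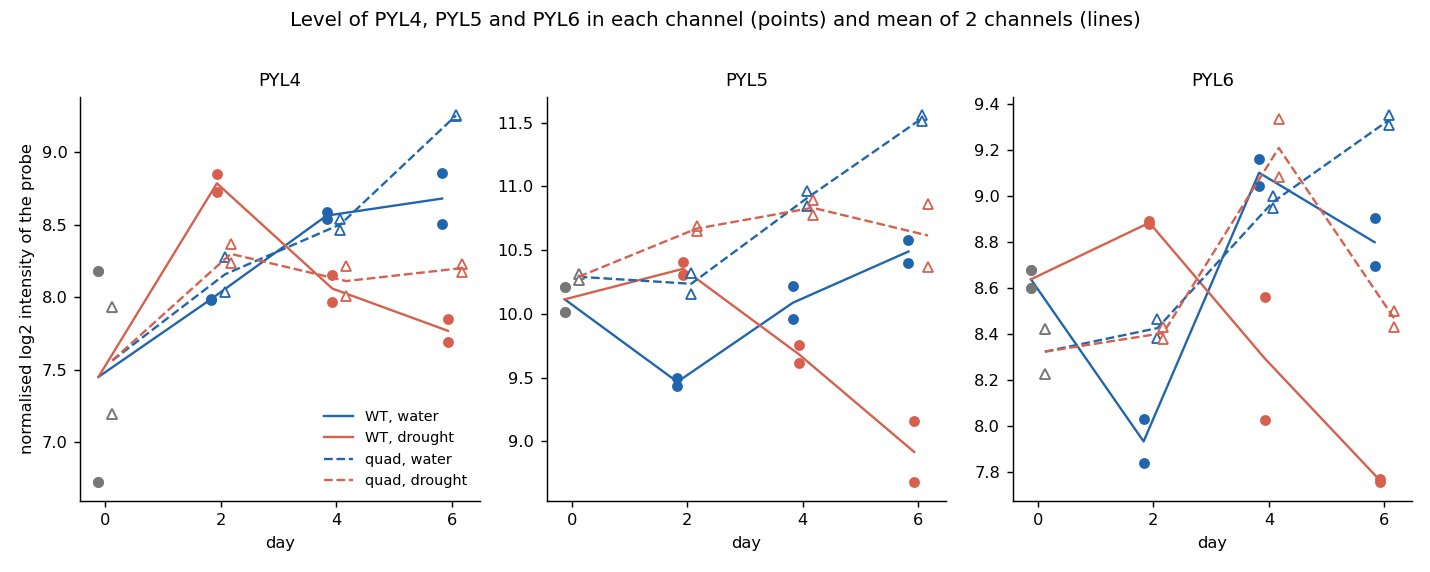
Normalised log2 intensity (vertical axis, a scale of its own for each probe) of PYL4, PYL5 and PYL6 by day (horizontal axis) in WT (filled circles, solid lines) and quad (open triangles, dashed lines), watered in blue, droughted in red and day 0 in grey; points are channels and lines join the means of 2. At day 6 drought WT PYL5 is at 8.68 and 9.16, below quad at 10.37 and 10.86, and at day 2 the droughted WT plants lie above the watered ones for all 3 genes.

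In WT, droughted and watered plants differed in PYL5 in opposite directions at days 2 and 6. No array holds drought against water, so these differences were taken between arrays, in a fit to the single channels. At day 2 droughted WT plants had more PYL5 than watered ones, by 0.81 and 0.97 within the replicate numbers (0.89, SE 0.143, adjusted p = 0.000146). At day 6 they had less, by -1.72 and -1.42 (-1.57, adjusted p = 1.58e-07, 2.97-fold), which passed the limits of the methods, as did 0.424% of all genes. The day 4 difference was -0.40 (adjusted p = 0.228, and 0.0494 without an array of day 6 drought). In quad the differences were 0.43 (adjusted p = 0.0755, and 0.0129 without an array of day 6 drought), -0.07 (adjusted p = 0.900) and -0.92 (adjusted p = 8.50e-05) at days 2, 4 and 6. Tested as drought minus water of the quad/WT ratio, the response of quad was lower than that of WT at day 2 by -0.45 (SE 0.135, adjusted p = 0.0321) and higher at day 6 by 0.65 (adjusted p = 0.0161), with 0.33 (adjusted p = 0.287) at day 4. The day 2 difference was lost without any 1 of the 4 arrays of that day (adjusted p = 0.0850 to 0.185), and the day 6 difference without replicate 2 of day 6 water (0.54, adjusted p = 0.138) or of day 6 drought (0.65, adjusted p = 0.0685). The day 6 difference in WT stayed past the test without any single array, but was -1.48 and -1.33, under the limit of 1.5, without replicate 2 of day 6 water or replicate 1 of day 6 drought.

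PYL6 (AT2G40330), a close relative of PYL5, did not keep 1 direction. Its quad/WT ratio was -0.26 and -0.37 at day 0, 0.55 and 0.44 at day 2 water, -0.21 and -0.04 at day 4 water, and 0.65 and 0.40 at day 6 water. Under drought it was -0.45 and -0.51 at day 2, 0.52 and 1.31 at day 4, and 0.66 and 0.75 at day 6. No condition had arrays on both sides of 0, and 8 of 14 arrays were above it. Of the watered plants, quad had more PYL6 at day 2 (0.49, SE 0.143, adjusted p = 0.0273) and at day 6 (0.53, adjusted p = 0.0274). Of the droughted plants, it had less at day 2 (-0.48, adjusted p = 0.0370) and more at day 4 (0.91, adjusted p = 0.00238) and day 6 (0.70, adjusted p = 0.00713). The mean over conditions was 0.25 (adjusted p = 0.00355, and 0.0744 with the slide as a block). At day 4 drought the arrays lay far apart, and without replicate 2 the ratio was 0.52 (adjusted p = 0.109), while it was 1.23 with the high-background spots masked and 1.501 with the scanner-processed signals. At day 0, where the ratio was -0.31 (adjusted p = 0.238), it passed with those spots masked (0.0389). The calls at day 2 water and day 6 water were lost without either array of their own condition (adjusted p = 0.107 to 0.268), that at day 6 drought without its replicate 2 (0.101), and that at day 2 drought without either of its own arrays (0.223 and 0.254) or an array of day 0 (0.0512) or day 2 water (0.0523).

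In WT, PYL6 went from 7.84 and 8.03 with water to 8.88 and 8.89 with drought at day 2, on the log2 scale of its probe (0.95, SE 0.141, adjusted p = 5.80e-05). In quad the same comparison gave 8.38 and 8.47 with water and 8.43 and 8.38 with drought (-0.02, adjusted p = 0.977), and the groups overlapped. The responses differed by -0.97 (SE 0.202, adjusted p = 0.00439), a difference that kept its call without any single array. At day 4 the WT level was 9.16 and 9.04 with water and 8.56 and 8.03 with drought (-0.81, adjusted p = 0.00150), while quad gave 0.23 (adjusted p = 0.487). The difference at day 4 was 1.04 (adjusted p = 0.0103), but 0.65 (adjusted p = 0.0615) without replicate 2 of day 4 drought and 0.96 (adjusted p = 0.109) without replicate 1 of day 4 water. It was 1.36 with the high-background spots masked and 1.64 with the scanner-processed signals. At day 6 PYL6 was lower with drought than with water in both genotypes, by -1.04 in WT (adjusted p = 2.77e-05) and -0.86 in quad (adjusted p = 0.000155). The difference between these responses was 0.18 (95% interval -0.26 to 0.62, adjusted p = 0.752). Droughted WT plants of day 6, at 7.77 and 7.76, lay below WT at day 0. Droughted quad plants, at 8.43 and 8.50, did not lie below quad at day 0 (8.42 and 8.23), and watered ones were at 9.35 and 9.31.

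PYL4 (AT2G38310), the third member of subfamily II, differed less between the genotypes. Its ratio was 0.47 and -0.24 at day 0, on both sides of 0, and -0.48 and -0.49 at day 2 drought, where it was lower in quad (-0.49, SE 0.140, adjusted p = 0.0315). At day 6 water it was 0.75 and 0.40 and higher in quad (0.57, adjusted p = 0.0169), and at day 6 drought 0.38 and 0.48 (0.43, adjusted p = 0.0679). Either call was lost without 1 array of its condition (adjusted p = 0.236 and 0.207 at day 2 drought, 0.205 and 0.0523 at day 6 water), and both were lost with the scanner-processed signals (0.174 and 0.146). The mean over conditions was 0.11 (adjusted p = 0.115), and 0.16 (adjusted p = 0.00898) without replicate 2 of day 0. Without either array of day 0 the ratio of day 6 drought also passed (adjusted p = 0.0183). The day 0 channels of PYL4 were uneven within each genotype, at 6.72 and 8.18 in WT and 7.20 and 7.94 in quad, where replicate 1 was the lower in both.

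At day 6 PYL4 was lower with drought than with water in both genotypes, but not lower than at day 0. The day 0 means, from uneven replicates, were 7.45 in WT and 7.57 in quad, the lowest of each genotype. At day 6 WT was at 8.51 and 8.86 with water and 7.85 and 7.69 with drought (-0.91, SE 0.264, adjusted p = 0.0222). Quad was at 9.25 and 9.26 with water and 8.23 and 8.17 with drought (-1.05, adjusted p = 0.00736), with no overlap in either genotype. These calls were lost without replicate 2 of day 6 water (WT, adjusted p = 0.216), replicate 1 of day 6 drought (WT, 0.0549) or replicate 2 of day 6 drought (WT, 0.105, and quad, 0.0507). They were also lost with the scanner-processed signals (0.0685 in WT and 0.0597 in quad) and with a normexp offset of 0 (0.0865 and 0.0594). At day 2 the WT level rose by 0.86 and 0.73 (0.80, adjusted p = 0.0489), a call that 20 of 24 alternatives ended, among them the leaving out of any array of days 2, 4 or 6 (adjusted p = 0.0558 to 0.265). Quad gave 0.09 and 0.20 (0.14, adjusted p = 0.893). The difference between the responses at day 2 was -0.66 (SE 0.197, adjusted p = 0.0334) and was lost without any 1 of the 4 arrays of that day (adjusted p = 0.0611 to 0.216).

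Across the family, 4 of 9 receptors rose and 0 fell in WT at day 2 of drought, beside 10.4% and 3.21% of all genes. At day 4, 0 rose (0.627% of all genes did) and 1 fell (1.56%), and at day 6, 1 rose (7.44%) and 3 fell (7.75%). The genes of subfamily II were among the 4 that rose at day 2 and were the 3 that fell at day 6. In quad, 0 of 9 passed the test in limma at day 2, where 1.51% of all genes rose and 5.98% fell and 3 of the 9 had an unadjusted p under 0.05. In that genotype 1 rose (3.14%) and 0 fell (1.97%) at day 4, and 1 rose (7.44%) and 4 fell (10.6%) at day 6, the 4 being PYL4, PYL5, PYL6 and PYR1. The drought response of quad was lower than that of WT for 4 of 9 receptors (15.1% of all genes) and higher for 1 (6.02%) at day 2. It was higher for 1 and lower for 0 at day 4 (2.87% and 1.27% of all genes), and likewise at day 6 (1.39% and 3.31%). These comparisons share arrays, so they are given side by side only. Without normalisation between arrays, 1 of the 15 calls within a genotype held, that of PYL5 in WT at day 6, and the share of all genes that passed was 0.0309% to 0.857%. At days 2 and 6 drought and water of a replicate lay on the same slide, and at day 4 in replicate 2 only.

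**Figure D3:**
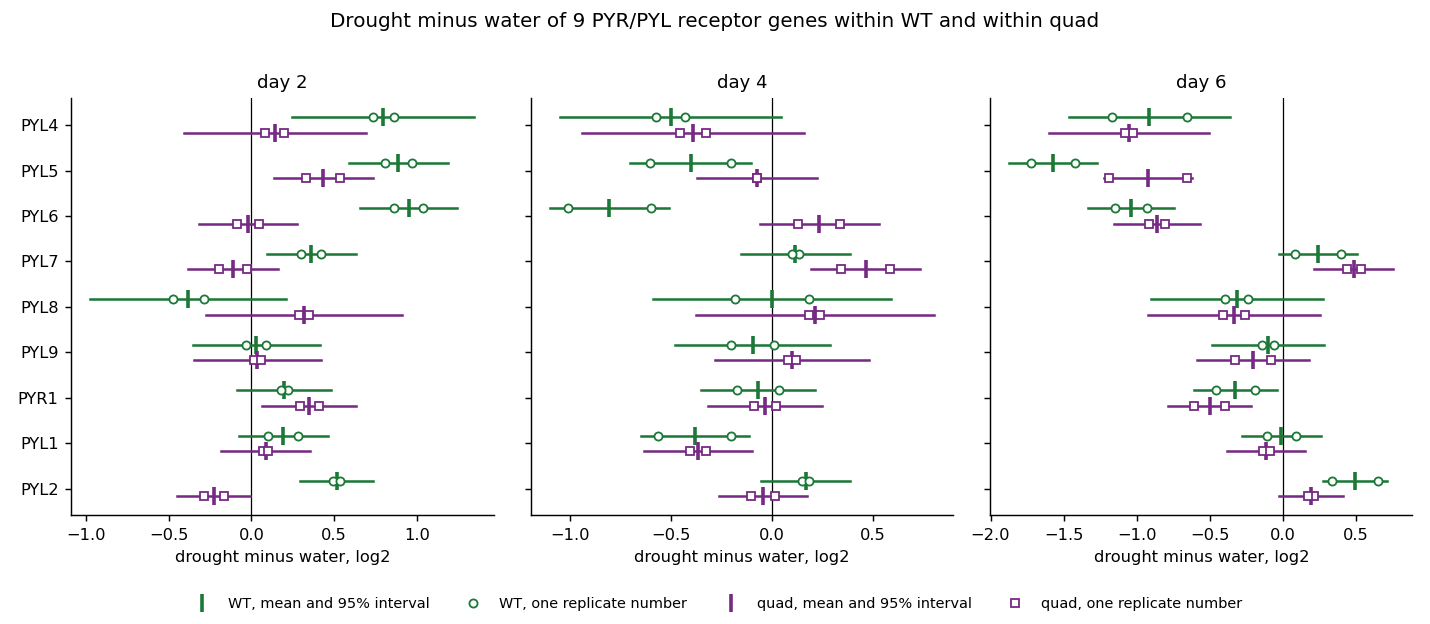
Drought minus water (log2, horizontal axis) of the 9 receptors within WT (green) and quad (purple) at days 2, 4 and 6; open symbols are the differences within a replicate number, ticks the means and lines the 95% intervals of the single-channel fit. At day 2 the genotypes lie farthest apart for PYL6 (0.95 in WT and -0.02 in quad). At day 6 the intervals of PYL4, PYL5, PYL6 and PYR1 lie below 0 in both genotypes, and so do the means of PYL1, PYL8 and PYL9.

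Outside subfamily II, PYL2 (AT2G26040), a dimeric receptor, rose in droughted WT plants at day 2 by 0.50 and 0.54 (0.52, SE 0.105, adjusted p = 0.00161) and at day 6 by 0.66 and 0.34 (0.50, adjusted p = 0.00246). In quad it was at -0.29 and -0.17 at day 2 and at 0.21 and 0.17 at day 6, and neither passed. The responses differed by -0.74 at day 2 (SE 0.138, adjusted p = 0.00216), a call that held under every alternative run. Its quad/WT ratio was -0.42 and -0.54 at day 2 drought (-0.48, adjusted p = 0.00476, and 0.112 without replicate 2), against 0.36 and 0.16 at day 2 water (0.26, adjusted p = 0.0801). The probe of PYL2 was dim, at a mean normalised log2 intensity of 6.92 after the offset of 50 was added, and without that offset its day 2 difference was -1.37, and -1.60 with the signals as the scanner software processed them.

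PYL7 (AT4G01026), a monomeric receptor, had the lowest ratio of the family before any treatment: -0.93 and -0.84 at day 0 (-0.88, SE 0.111, adjusted p = 0.000218, 1.85-fold lower in quad). WT was at 9.928 and 9.998 there and quad at 9.003 and 9.156, and no other condition of either genotype reached the WT level of day 0. The mean over conditions was -0.25 (adjusted p = 0.000582), with 10 of 14 arrays below 0, and no condition after day 0 passed the test. Without an array of day 6 drought, the ratios of day 4 water (-0.35) and day 6 water (-0.35) did pass (adjusted p = 0.0218 and 0.0212). In droughted quad plants PYL7 rose at day 4 by 0.59 and 0.34 (0.46, adjusted p = 0.0391) and at day 6 by 0.44 and 0.53 (0.49, adjusted p = 0.0111). The first of these was lost under 12 of 24 alternatives, among them the leaving out of any array of day 4 (adjusted p = 0.0831 to 0.304), of day 0 (0.0554 and 0.0555) or of day 2 drought (0.0596 and 0.0597), and the second without replicate 1 of day 6 water (0.137) or replicate 2 of day 6 drought (0.133).

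PYL8 (AT5G53160), a monomeric receptor known for its part in the ABA responses of roots, was lower in quad at day 2 water only, at -0.44 and -0.68 (-0.56, SE 0.128, adjusted p = 0.00732, and 0.190 without replicate 2). At day 2 drought it was 0.32 and -0.05, and the responses to drought differed by 0.70 (SE 0.181, adjusted p = 0.0162), opposite in sign to those of PYL2, PYL4, PYL5 and PYL6. That call was lost without replicate 2 of day 2 water (0.58, adjusted p = 0.128) or replicate 1 of day 2 drought (0.52, adjusted p = 0.159). The second probe of PYL8 gave -0.30 at day 2 water and -0.15 at day 2 drought, where the first gave 0.14, so the probes differed in sign there and also at day 4 drought (-0.08 and 0.07). At day 0 the level of PYL8 differed between the replicates in both genotypes, at 11.48 and 12.63 in WT and 11.44 and 12.76 in quad.

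PYR1 (AT4G17870), the founding member, and PYL1 (AT5G46790), both dimeric receptors, and PYL9 (AT1G01360), a monomeric one, showed the smallest differences. PYR1 passed the test in 1 of 17 contrasts, a fall of -0.39 and -0.61 in droughted quad plants at day 6 (-0.50, SE 0.136, adjusted p = 0.0134), which was lost without replicate 1 of day 6 water (adjusted p = 0.109) or replicate 2 of day 6 drought (0.171). WT gave -0.46 and -0.19 in the same comparison (-0.32, adjusted p = 0.124). PYL1 passed in 0 of 17 contrasts, with an unadjusted p under 0.05 in 2, and its fitted differences lay between -0.38 and 0.19, with 95% intervals that reached from -0.65 to 0.46. PYL9 also passed in 0 of 17, with an unadjusted p under 0.05 in 1, the mean over conditions (-0.19, adjusted p = 0.0505), where 11 of 14 arrays were below 0 and which passed without any 1 of 5 arrays of replicate 1 (adjusted p = 0.0166 to 0.0463). Replicate 2, of the opposite dye orientation, gave the lower PYL9 ratio in all 7 conditions. With the replicate as a block the mean passed (adjusted p = 0.000329), as did day 4 water (-0.40, 0.00442) and day 6 drought (-0.27, 0.0371). The array ratios of PYL9 ran from -0.64 to 0.23, those of PYL1 from -0.38 to 0.38 and those of PYR1 from -0.45 to 0.27.

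Of the 36 pairs of receptors, PYL5 and PYL6 had the most similar quad/WT ratios over the 14 arrays, with Pearson's r of 0.82 (Spearman's rho 0.89). The other pairs of subfamily II had r of 0.61 (PYL4 and PYL5) and 0.60 (PYL4 and PYL6), close to those of PYR1 and PYL8 (0.63) and of PYL6 and PYL7 (0.60), which belong to different subfamilies. The lowest was -0.68, for PYL1 and PYL9. These are descriptions: arrays of a condition share their plants' treatment, and arrays of a replicate number share a dye orientation. Over the 28 channels the levels of PYL5 and PYL6 correlated with r = 0.79.

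**Figure D4:**
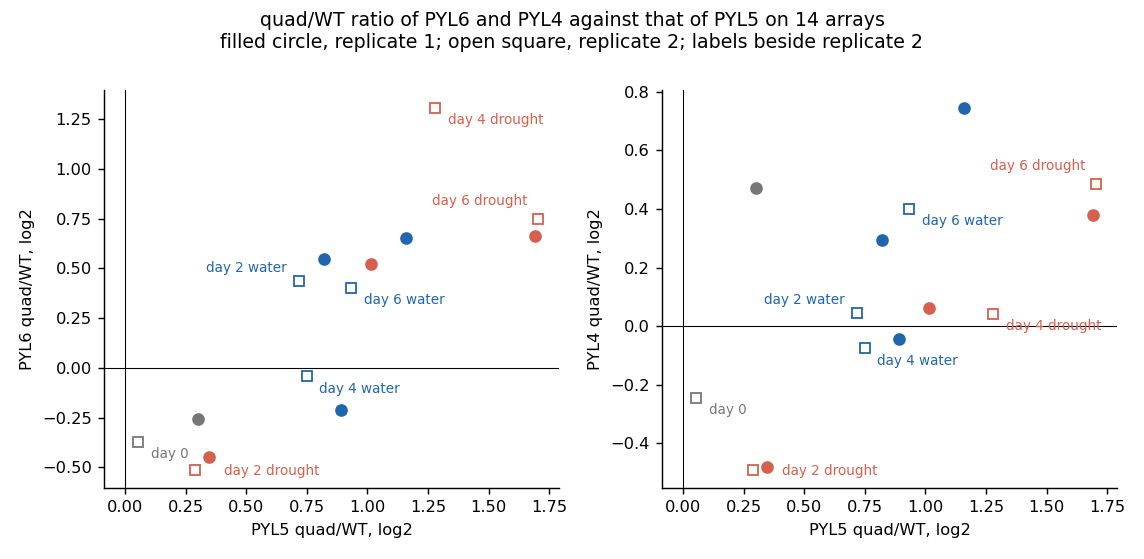
The quad/WT ratio (log2) of PYL6 (left) and PYL4 (right) against that of PYL5 on the 14 arrays, filled for replicate 1 and open for replicate 2, with the condition beside its replicate 2 array. The day 0 and day 2 drought arrays lie lowest for PYL6, at -0.26 to -0.51, and the day 6 drought arrays lie farthest to the right, at 1.69 and 1.70 for PYL5.

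The genes most like the 3 most variable receptors, by Pearson's r over the 14 arrays among 18644 genes well above background in every channel, were ERF73 (0.862), AT3G56730 (0.855) and AT1G26740 (0.854) for PYL6. For PYL5 they were AT1G20490 (0.885), AT2G30990 (0.879) and AT1G75290 (0.879). Their ratios ran from -0.40 to 0.51, -0.45 to 0.23 and -0.31 to 0.08, and that of PYL5 from 0.05 to 1.70, so only the pattern was alike. For PYL4 they were AT5G66390 (0.887), AT2G43610 (0.879) and AT3G47980 (0.876). As the top 3 picked from 18644 genes over 14 arrays, these r are high by selection and were not tested. Of the more divergent receptors PYL10 to PYL13, only the probe of PYL11 passed the filter. PYL11 was lower in quad at day 4 water (-0.31) and over the mean of the conditions (-0.11), and passed in no other condition.

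The phosphatases that the receptors inhibit changed direction between conditions. Of 8 clade A PP2C genes measured of 9, 6 were higher in quad at day 2 with water, beside 13.4% of all genes. With water 5 were lower at day 4 (7.98% of all genes) and 4 at day 6 (6.78%), and with drought 2 were lower at day 2 (11.9%), 1 at day 4 (2.58%) and 3 at day 6 (7.07%). HAI2, which also had the lowest mean over conditions (-0.35), was at 1.62 at day 2 water, and HAI1 was at -1.69 at day 4 water. ABI1, among the phosphatases first tied to ABA, had a mean of -0.24. The list's median was 0.48 at day 2 water and -0.44 at day 4 water, beside 0.01 and -0.01 for all genes.

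Kinases and transcription factors follow the phosphatases in the pathway. Of the 3 SnRK2 kinases that ABA activates most, SNRK2.6, the kinase of stomatal closure, was higher in quad at day 0 (0.51, beside 3.52% of all genes), and none of the 3 passed the test in limma in the 6 later conditions (SNRK2.6 had an unadjusted p under 0.05 at days 2, 4 and 6 of watering). Of the 5 ABF and ABI5 factors, 1 or 2 passed in each condition but day 4 drought, where 0 passed (3.32% of all genes higher and 2.58% lower). For the other conditions the shares of all genes stand with the receptor counts above. ABI5 had the largest mean over conditions (0.16), and the lowest ratio on that list was -0.87, of ABF3 at day 6 drought.

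Genes of ABA synthesis and breakdown and the classic ABA-responsive genes were tested in the same way. Over the mean of the conditions, 19.4% of all genes were lower and 17.5% higher. Of 8 genes of ABA metabolism, 3 were lower and 0 higher: ABA1, the zeaxanthin epoxidase (-0.77), NCED3, the dioxygenase that limits ABA synthesis under stress (-0.49), and ABA2 (-0.13). At day 2 water 4 of these 8 were higher (13.4% of all genes) and 2 lower (8.05%). Of 8 ABA-responsive genes, 7 were lower and 0 higher over the mean, led by the dehydrin LTI30 (-1.44), COR15A (-1.32) and RD29B (-1.01). Day 2 water stood apart, with 3 of these 8 higher (13.4% of all genes) and RD29B at 2.39. At day 4 water 6 were lower (7.98%) and RD29B was at -3.35. Against watered plants of day 2, 5 of the 8 rose with drought in WT, beside 10.4% of all genes. In quad 5 fell, beside 5.98%. The summed log2 level of the 8 in WT was 15.17 to 15.43 at day 0, 14.29 to 14.32 at day 2 water and 15.37 to 15.42 at day 2 drought. In quad it was 14.55 to 14.64, 14.89 to 15.02 and 13.62 to 13.98. RAB18 was dim, well above background in 9 of 14 quad and 11 of 14 WT channels.

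**Figure D5:**
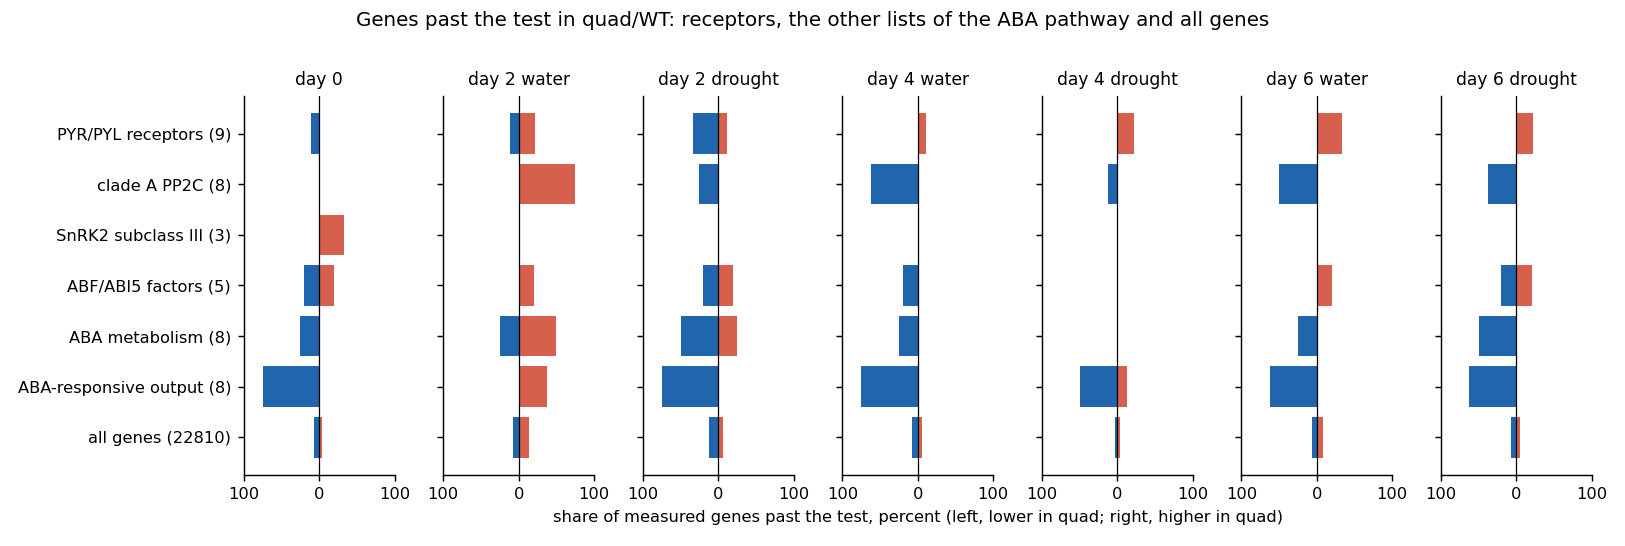
Share of the measured genes of each list (number in brackets) that passed the test in quad/WT in the 7 conditions, in percent, higher in quad to the right in red and lower to the left in blue, with all genes as the lowest row. The receptors passed only as higher from day 4 on, while the PP2C and ABA-responsive lists passed there only or mostly as lower.

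Markers of plant organs moved in some of the same conditions. The labels name mature whole plants, and the study's methods name both entire plants and rosettes. Of 14 root markers 12 passed the filter, with CASP5 above background in no channel and PYK10, BGLU22 and NRT2.1 in all. Several of the 12 were dim: of 14 quad and 14 WT channels, CASP4 was above background in 3 and 3, PRP3 in 4 and 2, CASP2 in 5 and 4. EXPA18 was so in 7 and 4, and EXPA7 in 9 and 4. The filter asks for 1 genotype in 1 condition, so dim genes can enter through the group where they are high. The counts below are descriptions only. At day 2 drought, where PYL2, PYL4 and PYL6 were lower in quad, 10 of the 12 were lower as well (11.9% of all genes). The summed log2 level of the 12 was 13.60 to 13.63 in quad and 14.09 to 14.34 in WT. At day 6 water, where PYL4, PYL5 and PYL6 were higher, 11 of the 12 were higher (7.78%), at 13.94 in both quad channels and 12.65 to 13.14 in WT. In WT at day 2, 11 of the 12 rose under drought (10.4% of all genes). At day 6 drought, where PYL5 had its highest ratio, 8 of the 12 were higher (4.93%), at 13.66 to 13.86 in quad and 12.82 to 12.84 in WT. At day 4 drought, where PYL5 and PYL6 were higher, 1 of the 12 was higher (median -0.09, 3.32% of all genes). At day 4 water 8 of the 12 were higher (median 0.73, 5.12%), while PYL5 was the 1 receptor that passed. Over the 14 arrays r with the median ratio of the root markers was 0.76 for PYL4, 0.73 for PYL2, 0.575 for PYL1, 0.54 for PYL5, 0.45 for PYL6, 0.38 for PYR1 and between -0.12 and -0.03 for PYL7, PYL8 and PYL9, and their part in the receptor differences was not tested.

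Leaf, flower and guard cell markers were counted in the same way, for the mean over the conditions, where 17.5% of all genes were higher and 19.4% lower. All 10 leaf markers were above background in every channel, 0 were higher and 7 lower, and the r of their median with PYL6 was -0.66, with PYL7 -0.59 and with PYL1 -0.53. Of the 11 flower markers 8 were higher and 3 lower, and the r with PYL2 was -0.72. Among them MYB21 and MYB24 were dim, above background in 4 and 2 quad channels and in 8 WT channels each. VGD1 was dim too, above background in 7 quad and 10 WT channels. Of 6 guard cell markers, which would follow the cells that close stomata, 2 were higher and 0 lower, and r with the 9 receptors lay between -0.29 and 0.31. Whether these cell types account for any receptor difference was not tested.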

How the data were processed

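The data were 14 Agilent 2-colour arrays (45210 spots and 43643 probes each), scanned with Feature Extraction 10.5.1.1 per the file headers, with polyA RNA per the labels. The median spot and background intensity columns of Cy3 and Cy5 are as the authors deposited them, not normalised. The deposited log10 ratio of the scanner software served only to find the scale of the deposited log2 ratio table, which the authors made with limma (normexp correction and quantile normalisation), which runs as Cy5 over Cy3 without being turned for the dye swap, and which was used as an alternative. The 0 and 1 flags of the deposited scanner files marked dim and outlier spots.

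In R 4.3.3 with limma 3.58.1, intensities were corrected with normexp (offset 50), then loess within each array and Aquantile between arrays were applied, and outlier and control spots were left out. The probe with the highest mean stood for a locus, which was kept if some genotype had it well above background in both replicates of a condition (5517 loci removed). Quad/WT ratios were fitted over the 14 arrays with a coefficient for each of 7 conditions and eBayes, and the single channels with lmscFit (22641 loci, correlation within spots 0.249), with Benjamini-Hochberg adjustment over all genes. Intervals are 95%. Locus names in the files were matched to RefSeq for 27785 loci, where PYL8 and PYL9 are named RCAR3 and RCAR1. No array pair held identical values, 0 spots were saturated, and 24865 to 31721 probes a channel were well above background. Whether replicates came from separate sowings is not given in the sources used here, so the p-values cover the spread between these samples.

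The members and the gene lists were chosen with earlier results of these data known. Named were all 10 loci, up to 3 genes of each list with the largest mean ratio and those with the largest rise or fall in a condition described, the 3 genes most correlated with each of the 3 most variable members, and the 4 mutated genes. Alternatives were the scanner-processed signals, a normexp offset of 0, no or quantile normalisation between arrays, median centring, no filter on dim probes, the mean over probes, the deposited ratios, slide and replicate as blocks, masking of spots with high background, and leaving out each array. The ratio fit was tried on simulated data for quad/WT at day 6 drought, and the single-channel fit for drought against water at day 6. Other contrasts and the alternative fits were not tried in that way.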

Additional observations from a re-analysis of the deposited data

Results flagged for a closer look

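For 7 differences the response of quad to drought differed from that of WT past the test, as drought minus water of the quad/WT ratio in limma, each from 4 arrays. At day 2 these were PYL6 (-0.97), PYL2 (-0.74), PYL4 (-0.66), PYL5 (-0.45) and PYL8 (0.70). PYL8 was the only one of the 5 with a positive sign. At day 4 the difference was that of PYL6 (1.04) and at day 6 that of PYL5 (0.65). The day 2 values of PYL6 and PYL2 kept their call under every alternative run, while each of the other 5 lost it without at least 2 single arrays. The root markers, several of them dim, moved at day 2 as well. In the same difference 12 of 12 were lower (median -1.33), beside 15.1% of all genes, and their part in the receptor differences was not tested.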

How the results depend on the processing

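No receptor difference that passed the test changed direction under the alternatives run. The calls over the 7 conditions (16) were 12 to 18 when single arrays were left out, and those for the mean (3) were 3 to 4, for the differences in drought response (7) 4 to 8, and within a genotype (15) 12 to 16, where a condition's remaining array was taken to vary like the others and the correlation within spots was kept from all arrays. Past the limits of the methods, the 1 call in the conditions stayed at 1, the 0 for the mean and the 0 for the differences stayed at 0, and the 1 within a genotype was 0 to 1. The 4 calls in drought response arose without replicate 2 of day 2 water or replicate 1 of day 2 drought. With the scanner-processed signals the calls past those limits were 2 in the conditions, 2 for the differences and 2 within a genotype. Without normalisation between arrays 1 call within a genotype was left, and that setting moved the median of all genes by up to 0.37 in quad at day 4. With a normexp offset of 0, 11 calls in the conditions and 11 within a genotype were left. The slide as a block also ended the calls of PYL5 at day 2 drought (adjusted p = 0.0632) and PYL6 at day 2 water (0.0515).

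The replicate number is also the dye orientation, and no label says that it marks shared plants. Deviations of same-numbered arrays from their condition means correlated with r between 0.0039 and 0.634 over the 21 pairs of conditions, so none was negative. Same-numbered arrays thus deviated in part together, and dye and replicate cannot be told apart here. As no label gives a pairing, the main fit held no replicate term and left this shared part in the spread between replicates. With a replicate block the calls were 26 in the conditions (all 16 shared), 5 for the mean (all 3 shared), 8 for the differences and 20 within a genotype, while 11.8% to 30.5% of all genes passed in a condition and 48.4% for the mean. Without that block these shares were 5.90% to 21.5% and 36.9%. The number of arrays, 2 a condition, and the signal over background of the dim PYL2 and PYL3 probes limit what could be detected.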
